A study of Mus musculus with 62 samples.

Results

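The ventral hippocampus (vHPC) of mice given ethanol on 10 days was compared with that of mice given saline on 10 days, in 6 of the 62 poly(A) RNA libraries of the series. The members were chosen by region and paradigm in the sample labels, 3 libraries of the chronic ethanol group (replicates 4, 5 and 6) and 3 of the chronic saline group (replicates 2, 3 and 6), each from 1 mouse. All 6 mice were male C57BL/6J, 8 to 10 weeks old and not genetically altered. The ethanol group had received 2 g/kg by daily intraperitoneal injection (20% in saline) and the saline group the same volume of vehicle, and tissue was taken 4 h after the last injection. Regions were cored from frozen coronal slices, so a vHPC sample is a piece of tissue with all its cell types and not a sorted population. The comparison asks which genes and isoforms differ after repeated intoxication in a region tied to anxiety and stress responses. The 6 vHPC libraries of the acute paradigm, which follow a single injection, are given beside it where they bear on a result.

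The choroid plexus is a secretory epithelium in the brain ventricles that makes cerebrospinal fluid. It carries very high levels of *Ttr*, which encodes the thyroxine carrier transthyretin, and of a set of ion transporters and channels. It lies against the hippocampus in the lateral ventricle, and neurons make little or none of these transcripts, so a trace of the epithelium in a cored sample is visible in its RNA. Genes were therefore divided by whether they follow *Ttr*. A gene was said to follow *Ttr* where its log2(CPM + 0.5), with the mean of its own group of region, paradigm and treatment subtracted, had a Pearson correlation of at least 0.6 with that of *Ttr* over 55 libraries outside this comparison. A dorsal striatal library of the chronic saline group was left out there because its table column holds no counts for some chromosomes. CPM are the deposited counts relative to library size. For the class they were not scaled further. Elsewhere, unless stated, they were scaled between libraries by the trimmed mean of M values (TMM). Of the 19814 genes tested, 535 followed *Ttr* and 19279 did not. On either side of the limit lay *Ppfibp2* (r = 0.60, log2 fold change 0.68) and *Plin3* (r = 0.60, log2 fold change 0.78).

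Values per library are listed below in the order of saline replicates 2, 3 and 6 and ethanol replicates 4, 5 and 6, and a value after ± is the SD over 3 mice. The ethanol libraries were the deeper ones, with 13859707 to 16574721 gene counts against 11421520 to 12849309 in the saline libraries, so depth and treatment cannot be told apart here. Unless another test is named, a gene was called at a false discovery rate (FDR) below 0.1 with the quasi-likelihood test of edgeR. Nothing in the labels says which mice shared a cage or day, so p-values measure the spread between these mice only.

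Hippocampal markers were detected in every library. All members of the marker lists of CA1 and subicular pyramidal neurons (11 genes), CA3 pyramidal neurons (9 genes), dentate granule neurons (10 genes) and GABAergic interneurons (12 genes) had counts in each of the 6 libraries.

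Transcripts of the choroid plexus were higher in all 3 libraries after repeated ethanol. *Ttr* itself measured 3.39, 169 and 88.8 CPM in the saline libraries and 769, 2843 and 1212 CPM in the ethanol libraries. Every ethanol library lay above every saline library, but the saline libraries themselves spanned a wide range. *Ttr* was not an edgeR call (log2 fold change 4.20, SE 0.94, FDR 0.248, DESeq2 FDR 0.0989). EdgeR called 11 of the 19814 genes (0.0555%), all of them higher after ethanol, and 10 of the 11 followed *Ttr* in the other libraries. These were *F5*, *Tmem72*, *Kl*, *Ace*, *Kcne2*, *Clic6*, *Kcnj13*, *Slc4a5*, *Enpp2* and *Rbm47*, and 9 of them belong to the list of 30 choroid plexus genes, *Rbm47* being the exception. The gene outside the class was *Vat1l*. No gene was called lower by edgeR, and 1013 genes were higher (5.11%) and 871 lower (4.4%) at an unadjusted p under 0.05. In cored tissue, more choroid plexus in a sample and more of these RNAs per cell of the epithelium cannot be told apart, and the same holds for every cell type below.

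**Figure D1:**
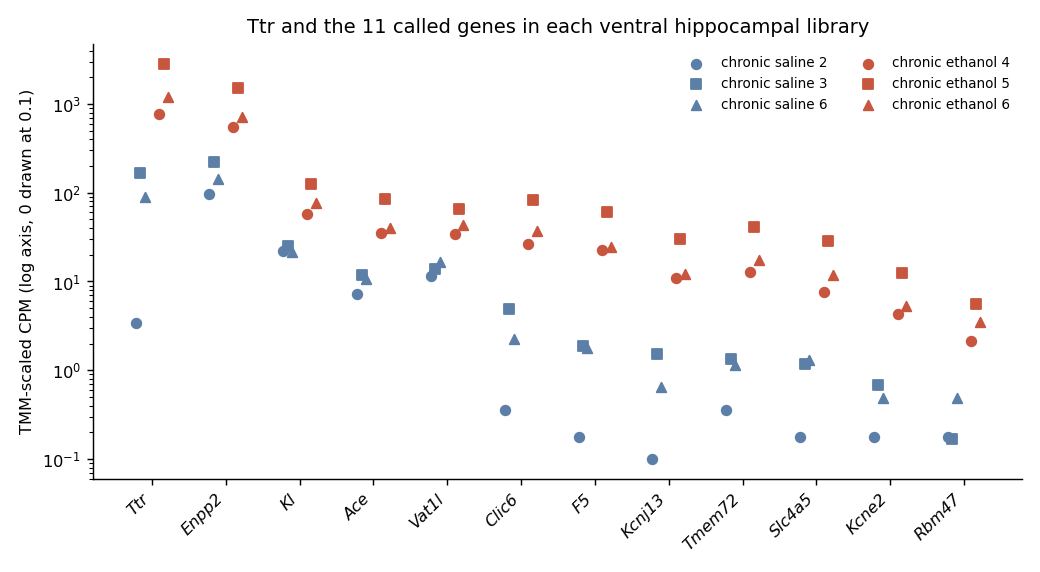
TMM-scaled CPM (log axis, with the single 0 of *Kcnj13* drawn at 0.1) of *Ttr* and the 11 called genes in the 3 chronic saline and 3 chronic ethanol libraries, 1 point per mouse. For each of the 12 genes the 3 ethanol points lie above the 3 saline points, and ethanol replicate 5 is the highest library throughout.

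*F5* (ENSMUSG00000026579; chromosome 1, 163979407 to 164047846), which encodes coagulation factor V, measured 0.178, 1.86 and 1.78 CPM in the saline libraries and 22.7, 60 and 24.5 CPM in the ethanol libraries. Its level rose from 1.27 ± 0.947 to 35.8 ± 21 CPM (log2 fold change 4.79, SE 0.54, FDR 0.0416). *Tmem72* (ENSMUSG00000048108; chromosome 6, 116656024 to 116693874), a membrane protein of the choroid epithelium, measured 0.356, 1.35 and 1.13 CPM in the saline libraries and 12.9, 40.6 and 17.3 CPM in the ethanol libraries (log2 fold change 4.62, SE 0.52, FDR 0.0416). Saline replicate 2 had the least of both, and the highest saline value of either gene lay far below its lowest ethanol value.

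Channels and transporters stood among the other calls that followed *Ttr*. The potassium channel genes were *Kcne2* (ENSMUSG00000039672; chromosome 16, 92089277 to 92095017), an accessory subunit, with 0.178, 0.675 and 0.485 CPM in the saline libraries and 4.27, 12.5 and 5.23 CPM in the ethanol libraries (log2 fold change 4.01, SE 0.55, FDR 0.0698), and *Kcnj13* (ENSMUSG00000079436; chromosome 1, 87314085 to 87322451), the inward rectifier Kir7.1, which rose from 0.722 ± 0.762 to 17.9 ± 10.8 CPM (log2 fold change 4.60, SE 0.65, FDR 0.0726). The anion and bicarbonate genes were *Clic6* (ENSMUSG00000022949; chromosome 16, 92282624 to 92338131), which rose from 2.5 ± 2.28 to 49.2 ± 30.3 CPM (log2 fold change 4.28, SE 0.59, FDR 0.0698), and *Slc4a5* (ENSMUSG00000068323; chromosome 6, 83196810 to 83280458), a sodium bicarbonate cotransporter, which rose from 0.885 ± 0.614 to 15.9 ± 11.1 CPM (log2 fold change 4.14, SE 0.60, FDR 0.0866). These are proteins of ion and fluid transport across the epithelium.

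Enzymes and a receptor at the cell surface rose as well. *Kl* (ENSMUSG00000058488; chromosome 5, 150876072 to 150917282), which encodes klotho, a co-receptor for fibroblast growth factor 23, measured 22.1, 25.1 and 21.4 CPM in the saline libraries and 58.3, 126 and 76.3 CPM in the ethanol libraries (log2 fold change 1.93, SE 0.24, FDR 0.0698). *Enpp2* (ENSMUSG00000022425; chromosome 15, 54702297 to 54816288), which encodes autotaxin, the enzyme that makes lysophosphatidic acid, measured 97.9, 222 and 143 CPM in the saline libraries and 553, 1531 and 713 CPM in the ethanol libraries (log2 fold change 2.59, SE 0.38, FDR 0.0873). *Ace* (ENSMUSG00000020681; chromosome 11, 105858771 to 105880790), the angiotensin-converting enzyme, rose from 9.93 ± 2.34 to 53.7 ± 28 CPM (log2 fold change 2.43, SE 0.33, FDR 0.0698), and *Rbm47* (ENSMUSG00000070780; chromosome 5, 66173892 to 66330461), which encodes an RNA-binding protein, from 0.277 ± 0.18 to 3.73 ± 1.7 CPM (log2 fold change 3.69, SE 0.56, FDR 0.0917). Among these, *Kl*, *Enpp2* and *Ace* were well above 0 in every saline library, unlike *Rbm47*. With 2, 2 and 6 counts in the saline libraries, *Rbm47* passed the count filter (5 or more in 2 libraries of a group) through the ethanol group alone.

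The promoters of 4 called genes are printed to show the sequence upstream of transcripts that moved together and of the exception. They come from RefSeq on GRCm38.p6, as the 250 bases before the annotated start, 5′ to 3′ on the strand of the gene. Capitals mark matches to the core motif TAATCC or its reverse complement GGATTA, the letters bound by homeodomain proteins such as OTX2, a regulator of the choroid plexus. Of the genes with such a window, 7.21% of 27025 held a match in at least 1 annotated start, against 2 of the 8 called genes that follow *Ttr* and have a window and 3 of 25 choroid list genes.
F5 promoter, chr1:164151585-164151834, plus strand: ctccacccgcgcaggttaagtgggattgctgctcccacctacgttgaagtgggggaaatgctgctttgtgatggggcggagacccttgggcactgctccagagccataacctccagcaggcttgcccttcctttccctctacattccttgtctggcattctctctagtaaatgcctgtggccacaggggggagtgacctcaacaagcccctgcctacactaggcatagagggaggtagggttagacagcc
Ace promoter, chr11:105967698-105967947, plus strand: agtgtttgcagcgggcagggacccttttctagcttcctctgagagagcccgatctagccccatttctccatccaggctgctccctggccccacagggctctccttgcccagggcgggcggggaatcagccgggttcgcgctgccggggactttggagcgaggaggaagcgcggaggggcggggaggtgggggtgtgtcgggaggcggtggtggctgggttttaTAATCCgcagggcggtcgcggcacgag
Rbm47 promoter, chr5:66151955-66152204, minus strand: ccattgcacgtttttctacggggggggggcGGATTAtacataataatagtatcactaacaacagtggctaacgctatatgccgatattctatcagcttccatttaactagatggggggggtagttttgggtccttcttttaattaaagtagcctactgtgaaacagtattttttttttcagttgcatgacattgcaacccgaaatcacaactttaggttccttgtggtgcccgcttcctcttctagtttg
Vat1l promoter, chr8:114205390-114205639, plus strand: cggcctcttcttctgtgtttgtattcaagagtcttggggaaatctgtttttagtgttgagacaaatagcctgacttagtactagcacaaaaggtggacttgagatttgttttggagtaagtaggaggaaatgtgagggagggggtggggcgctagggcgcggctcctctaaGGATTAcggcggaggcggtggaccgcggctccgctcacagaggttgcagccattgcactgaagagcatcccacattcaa
The printed window of *Ace* held its match starting 27 bases before the start, that of *Rbm47* 220 bases and that of *Vat1l* 79 bases. The window of *F5* held none. Other annotated starts of *Ace* and *Rbm47* had windows with 0 matches, which are not printed. Of the 9 called genes with a window, the 3 with a match were all printed. These matches describe the letters and are no measure of binding.

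Every gene of the choroid plexus list pointed up. All 30 members were tested and all 30 were higher after ethanol, with a median of 2.88 on the log2 scale against 0.01 over all genes tested. Of the 30, 9 were called by edgeR and 21 by DESeq2, and 28 followed *Ttr*. The groups did not overlap for 28 of the 30, where 7.48% of all genes had every ethanol library above every saline library. The summed level of the tested members was 216, 538 and 366 CPM in the saline and 1681, 5242 and 2392 CPM in the ethanol libraries.

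Members that did not pass the edgeR test had values of the same kind. *Prlr*, the prolactin receptor, measured 1.6, 3.21 and 6.63 CPM in the saline libraries and 16.2, 25.2 and 20.8 CPM in the ethanol libraries (log2 fold change 2.43, SE 0.37, FDR 0.102), and *Otx2*, the homeodomain regulator of this epithelium, 0.178, 1.86 and 1.13 CPM in the saline libraries and 6.16, 15.6 and 5.09 CPM in the ethanol libraries (log2 fold change 3.07, SE 0.60, FDR 0.199). *Aqp1*, the water channel of the epithelium, had a log2 fold change of 4.14 (FDR 0.135) and *Car12*, a carbonic anhydrase, one of 0.89 (FDR 0.218). DESeq2 called *Prlr*, *Otx2* and *Car12* higher (FDR 5.45e-08, 0.0795 and 0.00299). In saline replicate 2, 8 of the 30 members had a count of 0, in saline replicate 6 1 had, and in the 3 ethanol libraries none had.

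In the acute paradigm the same transcripts differed between mice of 1 group. There the summed choroid level was 4105, 1054 and 311 CPM in acute saline replicates 2, 4 and 6 and 1059, 3317 and 279 CPM in acute ethanol replicates 3, 4 and 5. The acute groups overlapped, and 2 of 3 acute saline mice, which had no ethanol, lay above every chronic saline library. The acute median log2 fold change of the list was -0.18. The interaction of paradigm and treatment, fitted over the 12 vHPC libraries, called 0 of 20618 genes with edgeR at an FDR below 0.1, and 2381 had an unadjusted p under 0.05. For *Kl* the interaction had an FDR of 0.347 and for *F5* one of 0.312. With all 4 vHPC groups in 1 fit, which shares the spread of the acute libraries, edgeR called 0 genes for chronic ethanol, and 1861 had an unadjusted p under 0.05.

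**Figure D2:**
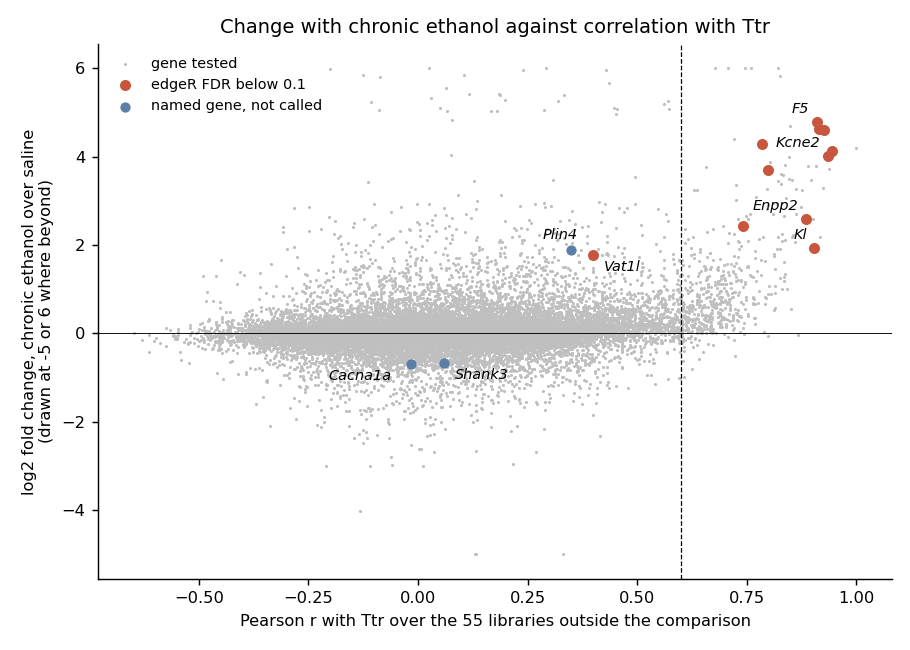
log2 fold change of chronic ethanol over saline (drawn at -5 or 6 where beyond) against the Pearson correlation with *Ttr* over the 55 libraries outside the comparison, 1 point per gene tested. The dashed line marks r = 0.6, and 10 of the 11 calls lie to its right with *Vat1l* on its left.

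Over all genes tested, those of the choroid list included, the change of a gene went with its relation to *Ttr* in the other libraries. Of the genes that followed *Ttr*, 28 were members of that list and 492 were in none of the 30 lists. The 535 genes that followed *Ttr* had a median of 0.71 on the log2 scale, with 504 higher and 31 lower, and 39.6% of them had an unadjusted p under 0.05. The 19279 others had a median of -0.00043, and 8.67% of them had such a p. Among the 62 genes with r of at least 0.8 the median log2 fold change was 2.68, among the 473 from 0.6 to 0.8 it was 0.64, and among the 1257 just below, from 0.4 to 0.6, it was 0.20. Genes just under the limit thus also leaned higher. These are counts over genes of the same 6 libraries, which are not independent replicates.

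Of the 10 genes outside the lists that correlate best with *Ttr*, 9 had every ethanol value above every saline value, as 7.48% of all genes had. *Slc2a12*, a glucose transporter gene (r = 0.86), measured 3.03, 3.88 and 3.4 CPM in the saline libraries and 8.29, 23.2 and 11.7 CPM in the ethanol libraries (log2 fold change 2.07, SE 0.36, FDR 0.135). *Wdr72* (r = 0.85) measured 0, 0.169 and 0 CPM in the saline libraries and 1.51, 1.72 and 1.84 CPM in the ethanol libraries (log2 fold change 4.70, SE 0.84, FDR 0.158). It passed the count filter through the ethanol group alone. The exception was *Tjp3*, a tight junction gene (r = 0.87), with 1.96, 3.04 and 3.56 CPM in the saline libraries and 1.88, 4.48 and 1.98 CPM in the ethanol libraries (log2 fold change -0.03, SE 0.41, FDR 0.99).

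*Vat1l* (ENSMUSG00000046844; chromosome 8, 114932352 to 115100810), which encodes a relative of a synaptic vesicle protein, was the single called gene that did not follow *Ttr* (r = 0.40). It measured 11.4, 13.8 and 16.5 CPM in the saline libraries and 34.2, 65.2 and 43.3 CPM in the ethanol libraries, a rise from 13.9 ± 2.55 to 47.6 ± 16 CPM (log2 fold change 1.77, SE 0.23, FDR 0.0698). As for the choroid genes, its highest library was ethanol replicate 5, and it passed the limit when the other choroid list genes, in place of *Ttr*, were the reference of the class. In the acute paradigm it measured 61.6, 45 and 19.4 CPM in saline replicates 2, 4 and 6. Acute ethanol replicates 3, 4 and 5 had 26.2, 57.9 and 7.95 CPM. Acute saline replicates 2 and 4, which had no ethanol, thus lay within the range of the chronic ethanol libraries. The acute log2 fold change of *Vat1l* was -0.45 (SE 0.61), and the interaction had an FDR of 0.322. Whether choroid tissue had a part in *Vat1l* was not tested.

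The number of calls rested on single libraries. Without ethanol replicate 4, the ethanol library with the least *Ttr*, edgeR called 360 genes, 73 of them followers of *Ttr*, and without ethanol replicate 5 it called 13. Without ethanol replicate 6 or any of the saline replicates 2, 3 and 6 it called 0. With the log2 CPM of *Ttr* as a covariate edgeR called 0 genes, and 573 had an unadjusted p under 0.05. Every ethanol library had more *Ttr* than every saline library, so *Ttr* and treatment cannot be told apart in that fit.

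DESeq2, the count test used by the study, called 214 genes in the same 6 libraries. It called 139 higher (0.702%) and 75 lower (0.379%). Of these 214, 76 followed *Ttr*, each of them higher, and the others divided into 63 higher and 75 lower. The 75 lower and 63 higher genes outside the class held neuronal and glial genes, but not these alone. *Car12* of the choroid list was among the higher ones and *Ptprb*, a gene of endothelium, among the lower. For all of the genes outside the class but *Vat1l* the edgeR FDR was 0.1 or more. Values below are given for these genes without calling them changed.

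Lists of other cell types differed between libraries as well. Ependymal genes, those of the ciliated cells that line the ventricle, had a summed level of 11.9, 75.7 and 14.6 CPM in the saline and 55.8, 117 and 51.3 CPM in the ethanol libraries, and 12 of 12 were higher with a median of 1.16 on the log2 scale (0 called by edgeR). Of the 12, 10 followed *Ttr*, and the median was 0.68 without saline replicate 2, 2.39 without saline replicate 3, 0.60 without ethanol replicate 5 and -0.91 with *Ttr* as a covariate. Saline replicate 3 had more ependymal RNA than ethanol replicates 4 and 6, so the groups overlapped. Genes of striatal projection neurons, whose cell bodies lie outside the hippocampus, summed to 322, 563 and 371 CPM in the saline and 397, 1904 and 385 CPM in the ethanol libraries. Ethanol replicate 5 alone stood apart there, with *Ppp1r1b*, which encodes DARPP-32, at 39.1, 90 and 40.8 CPM in the saline libraries and 65.6, 476 and 73.1 CPM in the ethanol libraries, and *Drd1*, the D1 dopamine receptor, at 2.85, 14 and 2.91 CPM in the saline libraries and 5.65, 48.2 and 6.51 CPM in the ethanol libraries. The median log2 fold change of the striatal list was 1.62 with all libraries and -0.14 without ethanol replicate 5.

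**Figure D3:**
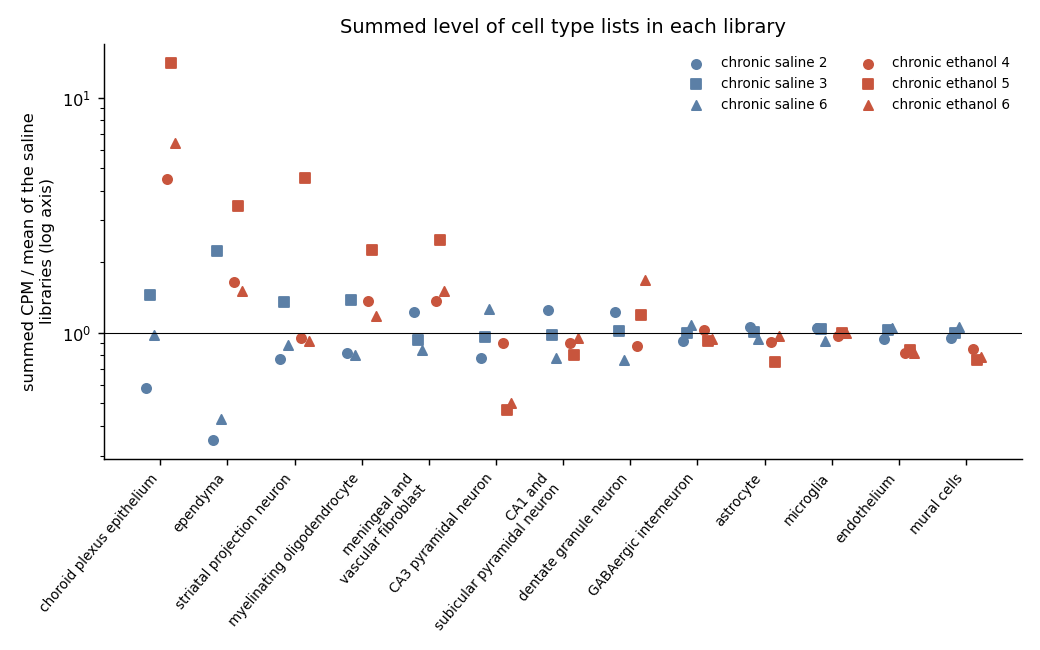
Summed CPM of 13 cell type lists in each library, divided by the mean of the 3 saline libraries (log axis), 1 point per mouse. Choroid plexus genes separate the groups, ethanol replicate 5 stands high for choroid, striatal, myelin and fibroblast genes, and microglial and interneuron genes lie close to 1 in every library.

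Myelin genes leaned the same way as the choroid genes. The list of myelinating oligodendrocytes had 16 of 16 members higher, with a median of 0.69 on the log2 scale, and summed to 3701, 6201 and 3636 CPM in the saline and 6171, 10137 and 5323 CPM in the ethanol libraries. Saline replicate 3 lay above ethanol replicates 4 and 6, so these groups overlapped too. *Mog*, a myelin surface protein gene, was the list's single DESeq2 call, at 39.6, 63.3 and 33.2 CPM in the saline libraries and 69.7, 107 and 59.7 CPM in the ethanol libraries (log2 fold change 0.80, SE 0.26, FDR 0.415, DESeq2 FDR 0.0989). None of the 16 followed *Ttr* by the limit, and with *Ttr* as a covariate the median was -0.02. Without ethanol replicate 5 it was 0.38.

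Genes of the hippocampal subfields gave unlike values. Of the 9 genes of CA3 pyramidal neurons, 8 were lower, each with an unadjusted p under 0.05 (4.4% of all genes), and the median log2 fold change was -0.81. Their summed level was 589, 718 and 948 CPM in the saline and 679.8, 351 and 379 CPM in the ethanol libraries, lowest in ethanol replicates 5 and 6, while ethanol replicate 4 lay among the saline libraries. *Cdh24*, a cadherin gene, measured 23.9, 15.2 and 26.7 CPM in the saline libraries and 13.8, 10.3 and 9.9 CPM in the ethanol libraries (log2 fold change -0.95, SE 0.22, FDR 0.25, DESeq2 FDR 0.0158), and *Grik4*, a kainate receptor subunit gene, had a log2 fold change of -0.65 (FDR 0.452). The exception was *Coch*, at 1.62 (FDR 0.406), which DESeq2 called higher (FDR 0.0868). The list's median ranged from -1.05 to -0.55 when single libraries were left out.

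Dentate granule genes pointed up and CA1 genes in both directions. The dentate list had a median of 0.39 on the log2 scale with 8 of 10 higher. Its summed level overlapped between the groups, at 854, 707 and 532 CPM in the saline and 612, 827 and 1173 CPM in the ethanol libraries, and the median was 0.22 without saline replicate 6, 0.64 without ethanol replicate 4 and 0.14 without ethanol replicate 6. *Il16*, for a cytokine precursor, was lower in every ethanol library, with a log2 fold change of -0.65 (FDR 0.406). *Calb1*, for the calcium buffer calbindin, measured 102, 76.8 and 60 CPM in the saline libraries and 108, 117 and 172 CPM in the ethanol libraries (log2 fold change 0.73, SE 0.21, FDR 0.362, DESeq2 FDR 0.05). Its acute log2 fold change was 0.73 (SE 0.12), and the interaction had an FDR of 0.999. The 11 genes of CA1 and subiculum had a median of -0.05 with 5 higher and 6 lower. Of these, *Nr3c2*, the mineralocorticoid receptor, was called lower by DESeq2 alone, at 241, 203 and 214 CPM in the saline libraries and 163, 108 and 152 CPM in the ethanol libraries (log2 fold change -0.63, SE 0.15, FDR 0.253, DESeq2 FDR 0.0102). Which subfields a core holds depends on where it was taken, and its part in the subfield values was not tested.

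Microglial genes lay near 0 and vascular genes had mostly lower values. Microglial genes had a median of -0.01 on the log2 scale, with 0 of 12 at an unadjusted p under 0.05. Astrocyte genes had a median of -0.09, with 11 of 12 lower and 2 of those at an unadjusted p under 0.05, *Ntsr2* and the glutamate transporter gene *Slc1a2*. Endothelial genes had a median of -0.29 and mural genes one of -0.34, each with 8 of 10 lower, and 4 endothelial and 3 mural genes were lower at an unadjusted p under 0.05 (4.4% of all genes). The summed level of the endothelial list was 192, 209.8 and 214 CPM in the saline and 168, 173 and 168 CPM in the ethanol libraries, and that of the mural list 195, 205 and 217 CPM in the saline and 175, 158 and 162 CPM in the ethanol libraries. Neither pair of groups overlapped in these sums. *Pecam1*, an endothelial adhesion gene, measured 14.6, 12.5 and 16.5 CPM in the saline libraries and 9.67, 10.5 and 10.9 CPM in the ethanol libraries (log2 fold change -0.49, SE 0.16, FDR 0.414). *Ptprb* (ENSMUSG00000020154; chromosome 10, 116111428 to 116219911), a receptor phosphatase of endothelium, measured 51.2, 45.2 and 51 CPM in the saline libraries and 34.2, 33.1 and 31.3 CPM in the ethanol libraries (log2 fold change -0.58, SE 0.10, FDR 0.155) and was called lower by DESeq2 (FDR 0.00422). Oligodendrocyte precursors had a median of 0.21, or 0.12 without ethanol replicate 5.

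Fibroblast genes of the meninges and vessels divided into 6 higher and 6 lower, with a median of 0.13. Their summed level did not overlap, at 237, 181 and 164 CPM in the saline and 265, 483 and 293 CPM in the ethanol libraries, but the median was 0.62 without saline replicate 2 and 0.29 without ethanol replicate 4, and turned to -0.24 without saline replicate 3 and -0.08 without ethanol replicate 6. *Igfbp2*, a binding protein of insulin-like growth factors that also follows *Ttr*, was called higher by DESeq2, at 20.9, 15.9 and 22 CPM in the saline libraries and 32.5, 75.1 and 42.3 CPM in the ethanol libraries. *Col1a1*, a collagen gene, pointed the other way, with a log2 fold change of -0.85 (FDR 0.469) and no overlap between the groups. Interneuron genes had a median of -0.01 and thalamic genes one of 0.02.

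Most genes of the excitatory synapse had lower values after ethanol, although edgeR called none of them. At an excitatory synapse, scaffold proteins of the SHANK, DLGAP and DLG families hold glutamate receptors in the postsynaptic density, while Bassoon, Piccolo, RIM and UNC13 proteins organize release on the presynaptic side. Of 15 scaffold genes, 13 were lower and 2 higher, with a median of -0.28 on the log2 scale. Of these, 10 were lower at an unadjusted p under 0.05 (4.4% of all genes were), 3 were called lower by DESeq2 (0.379% of all genes) and 0 by edgeR. With *Ttr* as a covariate the median was -0.15. For 11 of the 15 every ethanol library was below every saline library, as it was for 7.24% of all genes.

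*Shank3* (ENSMUSG00000022623; chromosome 15, 89383826 to 89444464), which links glutamate receptors to the actin cytoskeleton, measured 384, 344 and 435 CPM in the saline libraries and 277, 221 and 233 CPM in the ethanol libraries. Its mean went from 388 ± 45.9 to 244 ± 29.7 CPM (log2 fold change -0.67, SE 0.12, FDR 0.155, DESeq2 FDR 0.00026). *Shank1* (ENSMUSG00000038738; chromosome 7, 43959677 to 44009996), its paralog, measured 699, 629 and 723 CPM in the saline libraries and 518, 341 and 414 CPM in the ethanol libraries (log2 fold change -0.69, SE 0.14, FDR 0.205, DESeq2 FDR 0.00197). *Dlgap3*, a partner of SHANK proteins, measured 364, 348 and 423 CPM in the saline libraries and 288, 297 and 259 CPM in the ethanol libraries (log2 fold change -0.43, SE 0.10, FDR 0.284, DESeq2 FDR 0.0414). *Dlg4*, which encodes PSD-95, had a log2 fold change of -0.27 (FDR 0.453), and the 2 members that were higher, *Dlg1* and *Homer1*, had 0.34 and 0.22 (FDR 0.452 and 0.502), both with an unadjusted p under 0.05 and no overlap between the groups.

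**Figure D4:**
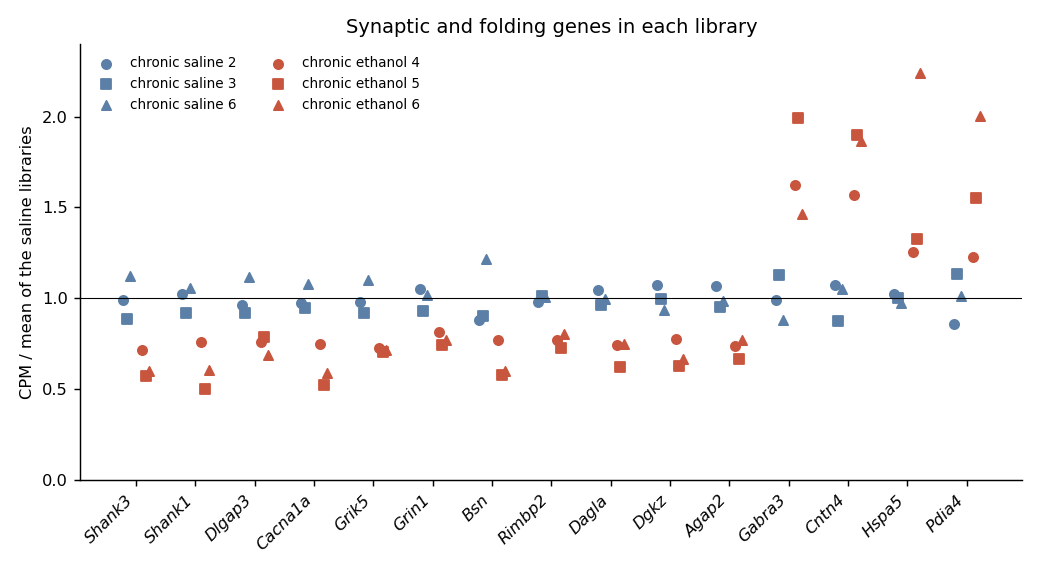
CPM of 15 synaptic, channel and protein folding genes in each library, divided by the mean of the 3 saline libraries, 1 point per mouse. The ethanol points of the first 11 genes lie below the saline points and those of the last 4 above, and none of the 15 is an edgeR call.

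On the presynaptic side, 17 of 18 genes were lower, with a median of -0.24 on the log2 scale, 5 of them at an unadjusted p under 0.05 (4.4% of all genes) and 4 called lower by DESeq2 (0.379%). *Bsn*, which encodes Bassoon, measured 750.3, 773 and 1041 CPM in the saline libraries and 658, 496 and 513 CPM in the ethanol libraries (log2 fold change -0.62, SE 0.15, FDR 0.278, DESeq2 FDR 0.0136). *Rimbp2*, which links calcium channels to release sites, measured 181, 187 and 186 CPM in the saline libraries and 142, 134 and 149 CPM in the ethanol libraries (log2 fold change -0.39, SE 0.09, FDR 0.248, DESeq2 FDR 0.0197), with the saline values close together and all ethanol values below them. *Pclo*, for Piccolo, had a log2 fold change of -0.53 and *Unc13a*, for the vesicle priming protein Munc13-1, one of -0.37. *Ppfia4*, for liprin-alpha-4 and outside the list, measured 146, 140.1 and 172 CPM in the saline libraries and 113, 90.3 and 108 CPM in the ethanol libraries (log2 fold change -0.56, SE 0.12, FDR 0.218). *Unc13c*, a paralog of *Unc13a* outside the list, pointed the other way, at 10.9, 13.7 and 18.4 CPM in the saline libraries and 32.5, 47.5 and 24.2 CPM in the ethanol libraries (log2 fold change 1.28, SE 0.25, FDR 0.199).

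Calcium channels and glutamate receptors gave values in the same direction for some members. Of the 8 pore-forming alpha1 subunits of voltage-gated calcium channels, 7 were lower, with a median of -0.22 on the log2 scale. Without ethanol replicate 5 that median was -0.14. *Cacna1a* (ENSMUSG00000034656; chromosome 8, 85065268 to 85366875), the P/Q-type channel of release sites, measured 219, 212 and 242 CPM in the saline libraries and 167, 117 and 132 CPM in the ethanol libraries (log2 fold change -0.69, SE 0.13, FDR 0.182, DESeq2 FDR 0.000896), and ethanol replicate 4 was the nearest to the saline libraries. Of 17 tested ionotropic glutamate receptor genes, 11 were lower and 6 higher, with a median of -0.05, and *Grin3b* had too few counts to be tested. *Grik5*, a kainate receptor subunit, measured 276, 259.6 and 312 CPM in the saline libraries and 205, 199 and 202 CPM in the ethanol libraries (log2 fold change -0.48, SE 0.09, FDR 0.199), with ethanol values close to each other. *Grin1*, the obligatory NMDA receptor subunit, measured 642, 568 and 623 CPM in the saline libraries and 498, 452 and 470.1 CPM in the ethanol libraries (log2 fold change -0.37, SE 0.09, FDR 0.297), and both were called lower by DESeq2 (FDR 0.00284 and 0.0335). *Grin2a* and *Grin2b* had log2 fold changes of -0.34 and -0.42 (FDR 0.51 and 0.406). The log2 fold change of the list that was largest in size went the other way, in *Grik3*, a kainate receptor subunit, with 0.66 (SE 0.22, FDR 0.42). The 7 metabotropic glutamate receptor genes had a median of 0.10.

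The 12 lower genes with the smallest p outside the *Ttr* class also held genes of none of the lists. *Dagla*, which makes the endocannabinoid 2-arachidonoylglycerol, measured 246, 226 and 234 CPM in the saline libraries and 175, 146 and 176 CPM in the ethanol libraries (log2 fold change -0.51, SE 0.10, FDR 0.199). *Dgkz*, a diacylglycerol kinase gene, measured 603, 561 and 526 CPM in the saline libraries and 438, 354 and 374 CPM in the ethanol libraries (log2 fold change -0.54, SE 0.11, FDR 0.199). *Agap2*, a GTPase-activating protein gene abundant in neurons, measured 1539.9, 1374 and 1425 CPM in the saline libraries and 1066, 959 and 1110.2 CPM in the ethanol libraries (log2 fold change -0.47, SE 0.10, FDR 0.202). Absence of overlap between the groups was part of the rule that chose them. The others of the 12 were *Itga7*, *Rasl10b* and *Smim39* beside those already named, with log2 fold changes from -0.93 to -0.46 and FDRs of 0.199, 0.202 and 0.205.

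Lower genes had a higher GC content than the rest. Over 14528 genes outside the *Ttr* class with a mean above 1 log2 CPM, the median log2 fold change went from 0.07 in the decile of lowest GC content to -0.11 in the highest, with a Spearman correlation of -0.21 across genes of the same libraries. The 75 genes that DESeq2 called lower had a median GC content of 57.2%, the 63 it called higher outside the class 47.3%, and all 14528 genes 49.4%. With the trend of each library with GC content and transcript length removed, an alternative added after the data were seen, DESeq2 called 35 genes outside the class lower, 24 of them among the 75, and 68 higher, 52 of them among the 63. The log2 fold change of *Shank3* became -0.47 (DESeq2 FDR 0.0447), that of *Shank1* -0.48 (FDR 0.121), that of *Cacna1a* -0.55 (FDR 0.0274) and that of *Bsn* -0.39 (FDR 0.368). Of the scaffold genes 1 remained a DESeq2 call and of the presynaptic genes 0. With the same trend removed in edgeR, the median was -0.21 for scaffold, -0.19 for presynaptic and -0.10 for calcium channel genes. That of the ionotropic glutamate receptor genes was -0.11. EdgeR called 2 genes in that fit, both followers of *Ttr*. The part of GC content in the synaptic values was not tested further.

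In the acute paradigm the scaffold list had a median of 0.14 on the log2 scale and the presynaptic list one of -0.05. *Shank3* had -0.01 (SE 0.11) after 1 injection and -0.67 (SE 0.12) after 10. *Dgkz* had 0.50 (SE 0.15) and -0.54 (SE 0.11). With edgeR the interaction had an FDR of 0.289 for both genes, the smallest of that test. A difference between the paradigms was thus not shown by edgeR with 3 mice a group. The interaction was not fitted here with DESeq2, the test used by the study.

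Other neuronal genes had higher values after ethanol. *Gabra3* (ENSMUSG00000031343; chromosome X, 71476287 to 71700454), the alpha3 subunit of GABA-A receptors, measured 28.3, 32.4 and 25.2 CPM in the saline libraries and 46.6, 57.1 and 41.9 CPM in the ethanol libraries (log2 fold change 0.76, SE 0.14, FDR 0.182, DESeq2 FDR 0.00271). *Gabra5*, the subunit of extrasynaptic receptors of hippocampal pyramidal neurons, pointed the other way, at 198, 208 and 210.5 CPM in the saline libraries and 181, 86.7 and 116 CPM in the ethanol libraries (log2 fold change -0.68, SE 0.21, FDR 0.406, DESeq2 FDR 0.0868). The 12 GABA-A subunit genes together had a median of 0.03 on the log2 scale, with 7 higher and 5 lower. *Cntn4*, a contactin involved in axon guidance, measured 14.1, 11.5 and 13.8 CPM in the saline libraries and 20.5, 24.9 and 24.5 CPM in the ethanol libraries (log2 fold change 0.83, SE 0.14, FDR 0.135), and *Lcorl*, for a nuclear factor, 12.3, 15.4 and 11 CPM in the saline libraries and 20.2, 22.3 and 22.5 CPM in the ethanol libraries (log2 fold change 0.75, SE 0.15, FDR 0.199).

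The other higher genes with the smallest p outside the *Ttr* class were in none of the lists. *Glp2r*, the receptor of glucagon-like peptide 2, measured 2.5, 2.02 and 1.13 CPM in the saline libraries and 4.27, 6.89 and 9.2 CPM in the ethanol libraries (log2 fold change 1.85, SE 0.37, FDR 0.199). *Timp2*, an inhibitor of matrix metalloproteinases, measured 143, 135 and 188 CPM in the saline libraries and 228, 243 and 239 CPM in the ethanol libraries (log2 fold change 0.61, SE 0.13, FDR 0.209). *Fras1*, *Emilin2* and *Vcam1*, for proteins of the extracellular matrix and of cell adhesion, had log2 fold changes of 0.95, 1.48 and 0.61 (FDR 0.199, 0.202 and 0.199). *Isl1*, a homeodomain gene of striatal and other neurons, had 0 counts in each saline library and 1, 2.64 and 0.707 CPM (16, 46 and 10 counts) in the ethanol libraries. It thus passed the count filter through the ethanol group alone, and absence of overlap was part of the rule that chose these genes. Against a floor of 3 counts in the shallowest saline library its ethanol mean was at least 5.71-fold higher. *Isl1* was highest in ethanol replicate 5, the library with the most striatal RNA. Whether striatal tissue in that sample had a part in *Isl1* was not tested.

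*Plin4* (ENSMUSG00000002831; chromosome 17, 56407591 to 56416803) was the gene outside the *Ttr* class closest to a call after *Vat1l*. It encodes a perilipin, a coat protein of lipid droplets, and belongs to the list of glucocorticoid-responsive genes. It measured 3.39, 8.1 and 4.21 CPM in the saline libraries and 25.4, 16.3 and 16.7 CPM in the ethanol libraries, with a mean that went from 5.23 ± 2.52 to 19.5 ± 5.18 CPM (log2 fold change 1.89, SE 0.30, FDR 0.128, DESeq2 FDR 1.81e-06). Its highest library was ethanol replicate 4, and its acute log2 fold change was 0.82 (SE 0.30). Whether choroid tissue had a part in *Plin4* was not tested. With the GC trend removed the change was 1.99, and with *Ttr* as a covariate 1.34. Other glucocorticoid-responsive genes had smaller log2 fold changes, with 0.03 for *Fkbp5*, 0.30 for *Sgk1* and 0.29 for *Tsc22d3* (FDR 0.949, 0.722 and 0.491). The list of 15 had a median of 0.14, with 13 higher, and 0.057 without ethanol replicate 6.

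The unfolded protein response raises chaperones of the endoplasmic reticulum when misfolded proteins gather there. Of 22 such genes, 18 were higher after ethanol, with a median of 0.26 on the log2 scale, 11 of them at an unadjusted p under 0.05 (5.11% of all genes were higher at that p), 3 called by DESeq2 (0.702%) and 0 by edgeR. *Hspa5* (ENSMUSG00000026864; chromosome 2, 34661982 to 34667559), which encodes the chaperone BiP, measured 172, 167 and 164 CPM in the saline libraries and 211, 222 and 376 CPM in the ethanol libraries (log2 fold change 0.68, SE 0.19, FDR 0.354, DESeq2 FDR 0.0383). *Pdia4*, a disulfide isomerase gene, measured 25.6, 33.7 and 30.1 CPM in the saline libraries and 36.6, 46.3 and 59.6 CPM in the ethanol libraries (log2 fold change 0.67, SE 0.18, FDR 0.339), and *Dnajc3*, a cochaperone gene, 46.2, 48.2 and 36.2 CPM in the saline libraries and 52.5, 68.2 and 71 CPM in the ethanol libraries (log2 fold change 0.55, SE 0.15, FDR 0.34). Ethanol replicate 6 was the highest library for each of these genes, and none of the 22 followed *Ttr*. Whether choroid tissue had a part in the values of the list was not tested. The median of the list ranged from 0.17 to 0.33 when single libraries were left out, the lowest without ethanol replicate 6. The sensors and regulators *Atf4*, *Atf6*, *Eif2ak3* and *Ern1* had log2 fold changes from -0.12 to 0.08. In the acute paradigm the list had a median of -0.17, and *Hspa5* -0.37 (SE 0.14), with an interaction FDR of 0.289. The cytosolic and mitochondrial chaperones had a median of 0.03.

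**Figure D5:**
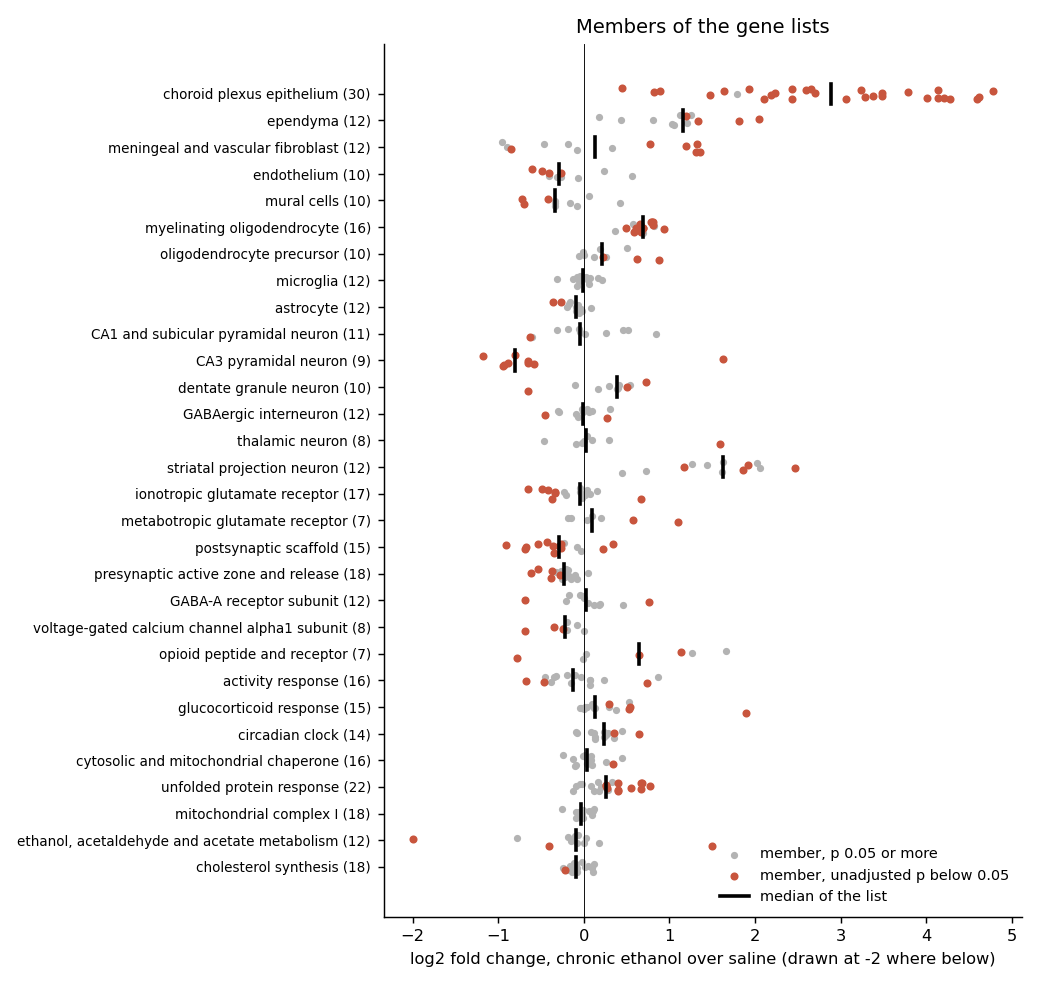
log2 fold change of chronic ethanol over saline for the tested members of the 30 gene lists (number in parentheses), 1 point per gene, red where the unadjusted p was under 0.05, with the list median as a black bar (*Cyp2e1* is drawn at -2). The choroid plexus list has the highest median of the 30, 2.88, although its members overlap in range with those of other lists, while scaffold, presynaptic and calcium channel genes lie mostly left of 0 and folding genes right of it.

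At the isoform level edgeR called 43 of 106864 transcripts (0.0402%), all higher after ethanol, from 17 genes. Isoforms of a gene share reads here, because a read pair was counted for each transcript it overlapped, so calls of the same gene are not independent. Of the 43, 39 came from genes that follow *Ttr*, with 9 from *Enpp2* and 4 each from *Ace*, *Rbm47* and *Sulf1*. The calls covered all 11 genes called at the gene level and 6 more, *Sulf1*, *Mfrp*, *Aqp1*, *Col8a1*, *Prlr* and *Plin4*. *Sulf1*, which encodes a heparan sulfate sulfatase, had 4 of 10 tested isoforms called, with log2 fold changes from 2.92 to 3.17. *Prlr*-202 measured 0.485, 0.979 and 1.83 CPM in the saline and 4.82, 7.45 and 6.18 CPM in the ethanol libraries (FDR 0.0456), the single called isoform of the 12 tested for the prolactin receptor.

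The 4 called isoforms of genes that do not follow *Ttr* were *Vat1l*-201, *Vat1l*-202, *Plin4*-201 and *Plin4*-202. *Plin4*-202 measured 1.02, 2.47 and 1.25 CPM in the saline and 7.81, 4.92 and 5.03 CPM in the ethanol libraries (log2 fold change 1.90, SE 0.29, FDR 0.0816), and *Plin4*-201 had an FDR of 0.084. *Vat1l*-201, a coding isoform of 3666 bases, measured 3.45, 4.23 and 4.92 CPM in the saline and 10.5, 19.7 and 13 CPM in the ethanol libraries (FDR 0.0448). *Vat1l*-202, annotated with a retained intron, had an FDR of 0.0515. The log2 fold changes of the called isoforms were 1.77 and 1.73 for *Vat1l* and 1.90 and 1.87 for *Plin4*. The other tested isoforms of *Vat1l* had 2.04 and 2.04 (FDR 0.197 and 0.199).

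No isoform was called lower by edgeR, and 9420 isoforms had an unadjusted p under 0.05 in either direction. The lower isoform with the smallest p among genes that do not follow *Ttr* was *Shank3*-201, at 81, 74.1 and 90.1 CPM in the saline and 57.6, 45.8 and 47.3 CPM in the ethanol libraries (log2 fold change -0.70, SE 0.12, FDR 0.116). All 10 tested isoforms of *Shank3* were lower, with log2 fold changes from -0.73 to -0.56, and they share reads. *Cacna1a*-212 (log2 fold change -0.63), *Ptprb*-201 (-0.57), *Itga7*-202 (-0.75) and the retained-intron isoforms *Dgkz*-209 (-0.59) and *Ppfia4*-202 (-0.60) followed among genes that do not follow *Ttr*, with FDRs from 0.187 to 0.197. On the higher side, *Cntn4*-206 (0.82), *Atp2b4*-205 (1.40), *Mef2c*-210 (0.92) and *Calb2*-202 (1.64) came next among genes that do not follow *Ttr*, with FDRs from 0.123 to 0.176. DESeq2 called 773 of the 106864 isoforms, 440 higher and 333 lower. All 333 lower and 178 of the higher ones came from genes outside the *Ttr* class, which held 19279 of the 19814 genes tested.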

How the data were processed

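The deposited values are raw counts per gene and per isoform, made by the authors with Cutadapt 5.0 (trimming), STAR 2.7.10a (alignment, GRCm39) and featureCounts 2.0.6. Multi-mapping and overlapping reads were counted for each feature, so near-identical genes, overlapping genes and isoforms share reads. The vHPC libraries were made with a directional kit. The tables also hold feature lengths, which belong to no sample.

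Libraries were grouped by their labels. A feature needed 5 or more counts in 2 libraries of a group, and was then tested with edgeR 4.0.16 (TMM, quasi-likelihood F test, Benjamini-Hochberg adjustment over all features tested, FDR below 0.1) in R 4.3.3, with DESeq2 1.42.0 as the alternative. The 6 libraries of the 2 chronic groups entered the fit, with no covariate. The fits of ethanol against saline by edgeR and DESeq2, for genes and isoforms, were tested on simulated data. The other steps were not. The biological coefficient of variation was 0.169. GC content was known for 19804 of the 19814 genes. DESeq2 gave 1539 genes no adjusted p, and these stayed without one.

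Genes were named by rule: every call, the genes the study names for this comparison, the 12 higher and 12 lower genes outside the *Ttr* class with the smallest p and no overlap, up to 4 members of each list, the 10 best correlates of *Ttr*, and 6 isoforms in each direction. Further list members named in the text were chosen after their values were seen. The comparison, the class and the 30 lists (401 of 403 genes tested) were chosen with earlier results of these data known. The removal of trends with GC content and length, and DESeq2 without the followers of *Ttr*, were added after the data were seen.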

Additional observations from a re-analysis of the deposited data

How the results depend on the processing

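No paired analysis was possible because the groups share fewer than 2 replicate numbers, replicate 6 alone. Of 11 gene calls, size factors of DESeq2 in edgeR left 11, while DESeq2 itself gave 214, no filter on low counts 790, at least 10 counts in every library 0 (1576 at an unadjusted p under 0.05), all 4 vHPC groups in 1 fit 0 (1861), *Ttr* as a covariate 0 (573), and removal of the GC and length trend 2 with edgeR and 175 with DESeq2. Leaving out 1 library gave 0 to 360 gene calls and 0 to 1735 isoform calls, the highest of both without ethanol replicate 4 and 0 without ethanol replicate 6 or any saline replicate. For isoforms, DESeq2 gave 773 calls, no filter 3366 and the stricter filter 18, against 43.

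Among genes that follow *Ttr* (10 calls), DESeq2 gave 76, no filter 162, the stricter filter, all 4 groups and the *Ttr* covariate 0 each, leaving out 1 library 0 to 73, and removal of the GC trend 2 with edgeR and 72 with DESeq2. Among the other genes (1 call), the same settings gave 138, 628, 0 each, 0 to 287, and 0 and 103. A limit of r = 0.8 moved the calls outside the class to 4, and the choroid list as reference moved them to 0. Leaving the followers out before the fit gave 0 calls with edgeR (1738 at an unadjusted p under 0.05) and 143 with DESeq2, whose filter on mean counts left 1712 genes with an adjusted p, or 83 without that filter, 42 of them lower and all of these 42 among the 75. The cause of these moves was not tested.

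Of the values of single genes under these settings, 374 kept their direction and side of the threshold, 91 passed it, 65 fell short of it and 9 turned direction. *Stat3* (0.08) ranged from -0.028 (without saline replicate 6) to 0.21 (without saline replicate 2), *Krt18* was -0.11 and *Drc7* -0.79 with *Ttr* as a covariate. *Tjp3* (-0.03) was -0.56 without ethanol replicate 5, 0.01 without saline replicate 3, 0.16 without saline replicate 6, 0.19 without ethanol replicate 4, 0.16 without ethanol replicate 6 and, with the GC trend removed, 0.069 in edgeR and 0.068 in DESeq2. Of the values of list medians 267 moved by less than the spread between replicates and 33 by more. With a library left out, medians close to 0 turned direction for the microglial, interneuron, thalamic, CA1, GABA-A receptor and chaperone lists. With 3 mice a group and 11421520 to 16574721 counts a library, differences smaller than the spread between mice were not detectable.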

Other observations

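Of 14 circadian clock genes, 12 were higher after chronic ethanol, with a median log2 fold change of 0.23 and 0 called by edgeR or DESeq2. Without ethanol replicate 6 that median was 0.15. Of the 18 subunit genes of mitochondrial complex I, 14 were lower, with a median of -0.03. Of 18 genes of cholesterol synthesis, 13 were lower, with a median of -0.10. The 12 tested genes of ethanol, acetaldehyde and acetate metabolism had a median of -0.09, and *Adh7* had too few counts to be tested. *Cyp2e1*, a microsomal enzyme that oxidizes ethanol, had 0 counts in each ethanol library. It thus passed the count filter through the saline group alone, and its log2 fold change of -5.27 rests on those zeros. Of the 13 genes listed, 2 had 0 counts in saline replicate 3, as in each ethanol library, and 1 in saline replicate 6. Neither edgeR nor DESeq2 called a gene of this list, and DESeq2 with the GC trend removed called 1 lower.

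Genes set by neuronal activity, 10 of 16 lower, had a median of -0.13, which ranged from -0.37 (without ethanol replicate 4) to 0.08 (without saline replicate 3) and so turned direction. The 7 opioid peptide and receptor genes had a median of 0.64 with 5 higher. Their summed level was 90.9, 128 and 104 CPM in the saline and 107, 335 and 107 CPM in the ethanol libraries, so ethanol replicate 5 alone stood apart, and the median was 0.15 without that library and -0.64 with *Ttr* as a covariate. *Gfra1*, a receptor of glial cell line-derived neurotrophic factor, measured 63.6, 48.8 and 52.9 CPM in the saline libraries and 62.5, 89.5 and 94.6 CPM in the ethanol libraries (log2 fold change 0.58, SE 0.16, FDR 0.356), and *Tmem151b*, for a membrane protein, 141, 139.9 and 143 CPM in the saline libraries and 115, 88.9 and 106 CPM in the ethanol libraries (log2 fold change -0.45, SE 0.11, FDR 0.273). DESeq2 called *Gfra1* higher (FDR 0.0885) and *Tmem151b* lower (FDR 0.0383). With the GC trend removed, the DESeq2 FDR was 0.0854 for *Gfra1* and 0.38 for *Tmem151b*. Without TMM scaling, *Ttr* spanned 1.96 to 114 CPM over the cortical libraries of the series and 3.33 to 2987 CPM over the vHPC libraries. It spanned 10.4 to 3664 CPM over the dorsal hippocampal and 0.283 to 2688 CPM over the ventral striatal libraries. Over the 13 dorsal striatal libraries, with the 1 lacking some chromosomes included, it spanned 0.639 to 6332 CPM.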
